A study of Mus musculus with 2 samples.

Results

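Airway secretory cells are the secretoglobin-rich epithelial cells of the conducting airways, and here they were taken as the cells of 2 whole-lung single-cell libraries in which Scgb1a1, Scgb3a1 and Scgb3a2 together made up at least 300 of every 10000 UMIs (unique molecular identifiers, each standing for 1 captured RNA molecule). A cell also needed at least 200 genes, a mitochondrial share of at most 15%, at most 1 UMI of the leukocyte gene Ptprc and no UMI of the ciliated cell genes Foxj1 and Ccdc153 or of the alveolar macrophage gene Marco. This gave 192 of 4688 cells, 74 in the injured library and 118 in the control library. Both libraries were made from lungs of C57BL/6 mice with the I73T mutation in surfactant protein C (SP-C), which alveolar type 2 (AT2) cells make. The injured library was described as taken 14 days after injury and the control library as taken at steady state, and the study's protocol gave 1 oral dose of tamoxifen at 175 mg/kg, which removes a neomycin cassette and raises the mutant protein. The treatment tags of the 2 libraries run against their titles, with the injured library tagged as untreated and the control library as tamoxifen treated. Groups follow the titles, so every direction below is between the library titled injured and the library titled control. The lungs were lavaged, perfused and digested with collagenase D, and the number, age and sex of the mice in a library are not given in the sources used here. With 1 library per group there was no test, and every interval is an exact 95% interval that covers counting error only.

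Secretory cells line the bronchioles between ciliated cells. Club cells carry cytochrome P450 enzymes, glutathione S-transferases and aldehyde dehydrogenases that modify inhaled and circulating chemicals, and they secrete secretoglobins into the airway fluid. Goblet-like secretory cells make the gel-forming mucins Muc5b and Muc5ac together with mucin-folding and mucin-processing factors, and in mice interleukin 13 acting through Stat6 is known to drive this state. Inflamed secretory cells are known to make antimicrobial and acute-phase proteins such as Lcn2, and Retnla is a small secreted protein that mouse airway epithelium and macrophages make in type 2 inflammation.

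The label fitted the markers in both libraries, with limits. All members had Scgb1a1, as the rule nearly requires. Scgb3a2, which the rule also sums, was found in 62 of 74 injured members and 109 of 118 control members, so neither gene is independent support. Of the markers outside the rule, Muc5b was found in 16 injured and 8 control members and Retnla in 72 and 61. Cyp2f2, a cytochrome P450 of club cells that the rule did not use, had UMIs in 35 of 74 injured members and 90 of 118 control members, against 0 of 56 injured and 1.57% of 319 control B cells. At least 2 of the 7 epithelial genes Epcam, Cdh1, Krt8, Krt18, Krt19, Cldn3 and Cldn7 were found in 41.9% of injured members and 61.0% of control members, against 18.5% and 15.2% of the other cells. The defining markers of ionocytes (Foxi1, Ascl3 and Cftr) were at 0 in the members of both libraries, and so were 3 of 4 tuft cell genes (Trpm5, Pou2f3 and Avil), while Dclk1 had 9.45 CPM in 3 injured members and 1.29 CPM in 1 control member. Of 5 neutrophil markers, 4 were found in injured and 3 in control members, summing to 626 CPM (a gene's part of the summed UMIs, scaled to 1000000) in injured and 46.5 CPM in control members, with Cxcr2 at 0 in both and Csf3r at 0 in control members. Of 6 AT2 cell markers, 5 were found in injured members, without Lamp3, and 6 in control members, summing to 2656 CPM in injured and 603 CPM in control members. Ciliated cell markers had UMIs in 10 injured and 56 control members, at 49.6 CPM and 172 CPM. Serous cell markers (Bpifa1, Ltf, Dmbt1 and Prr27) had UMIs in 20 injured and 13 control members, at 1127 CPM and 382 CPM. Bpifa1, Ltf and Dmbt1 also stand in the goblet and mucus list below. The highest sum in 1 cell was 144 per 10000 UMIs for neutrophil markers and 261 for AT2 markers in injured members, and 66.4 and 96.0 in control members. In control members 1 cell reached 673 for AT1 (alveolar type 1) cell markers and 1 cell 508 for macrophage markers, against highest sums of 29.8 and 54.0 in injured members. The marker gate of another cell type was also passed by 2 injured members (1 neutrophil, 1 AT1) and 5 control members (3 endothelial, 2 AT1). The share of these markers in the differences below was not tested.

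Members differed between the libraries in depth and in mitochondrial RNA. Injured members held 510 to 77581 UMIs with a median of 2318, and control members 530 to 32344 with a median of 4390. The mitochondrial share had a median of 0.915% in injured members and 0.227% in control members, whereas the other cells had medians of 5.43% in the injured library and 4.90% in the control library. A share under 1% was seen in 56.8% of injured members and 81.4% of control members. The 2 deepest injured members, with 77581 and 70820 UMIs, held 35.1% of all injured member UMIs, so summed levels are also given without these 2 cells. The first of them had 44362 Scgb1a1 UMIs and 28 Cyp2f2 UMIs, and the second 6421 genes, 1664 Scgb3a1 UMIs and 268 Muc5b UMIs. The 2 deepest control members held 8.19%. The libraries shared 1 cell barcode, and 1 member carried it.

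**Figure D1:**
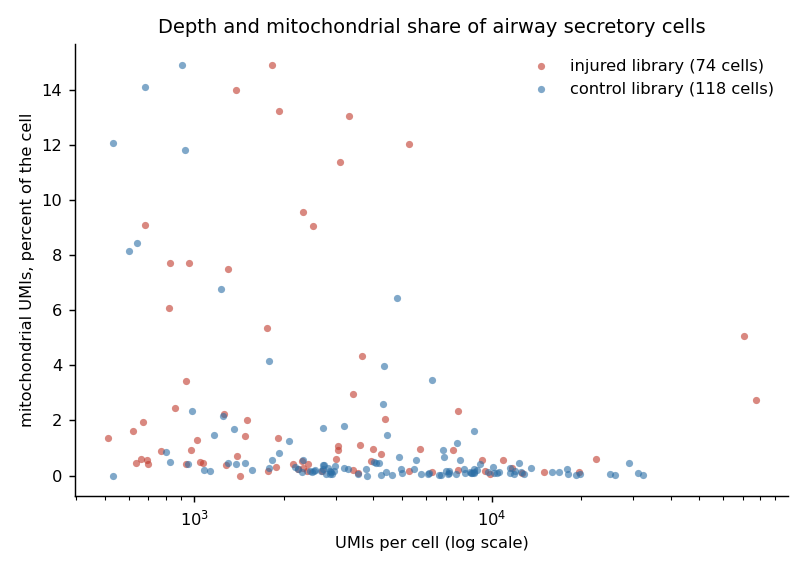
UMIs per cell (x axis, log scale) against the percent of mitochondrial UMIs (y axis), with 1 point per airway secretory cell of the injured library (74 cells, red) and of the control library (118 cells, blue). Most cells of both libraries lie under 2%, and the 2 injured cells at 77581 and 70820 UMIs lie to the right of every other cell.

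Free RNA was present in both libraries, as Scgb1a1 shows. B cells, which do not make secretoglobins, held at least 1 Scgb1a1 UMI in 83.9% of 56 injured and 99.7% of 319 control cells, at 1289 CPM and 3052 CPM. These levels are far below the 418929.9 CPM and 559559.6 CPM of injured and control members. At the member threshold the lowest sums inside were 358, 607 and 718 per 10000 in the injured library and 313, 321 and 333 in the control library, and the highest sums just outside were 175, 131 and 128 in the injured library and 255, 215 and 206 in the control library. Between 300 and 600 per 10000 lay 1 injured and 11 control members.

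Secretory cells made up a smaller share of the injured library. They were 74 of 2346 cells (3.15%, interval 2.48 to 3.94%) in the injured library and 118 of 2342 cells (5.04%, 4.19 to 6.00%) in the control library. Among cells with no Ptprc UMI, which leaves out most leukocytes, the shares were 8.99% (7.07 to 11.2%) in the injured library and 13.1% (10.9 to 15.5%) in the control library. A share of digested cells also moves with how many cells of other types were released and captured, and the 2 cannot be told apart here.

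Members were chosen by their summed secretoglobin UMIs, so their levels are a description. Scgb1a1, the main club cell secretoglobin, had a median of 3080 UMIs per 10000 in injured members (lowest 358, highest 8072) and 5282 in control members (lowest 217, highest 8284). Scgb3a2, a secretoglobin of club cells, had a median of 39.3 per 10000 in injured members (highest 385) and 107 in control members (highest 1037). Scgb3a1, which marks a subset of airway secretory cells, had a median of 0 in both libraries, with a highest value of 1478 in injured members and 1147 in control members. Scgb3a1 was the only one of the 3 that stood higher in injured members, at 16609.8 CPM against 2881 CPM in control members, a ratio of 5.77. The 3 genes together took 44.2% of injured member UMIs and 57.5% of control member UMIs, and a gene's CPM is read within that total.

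**Figure D2:**
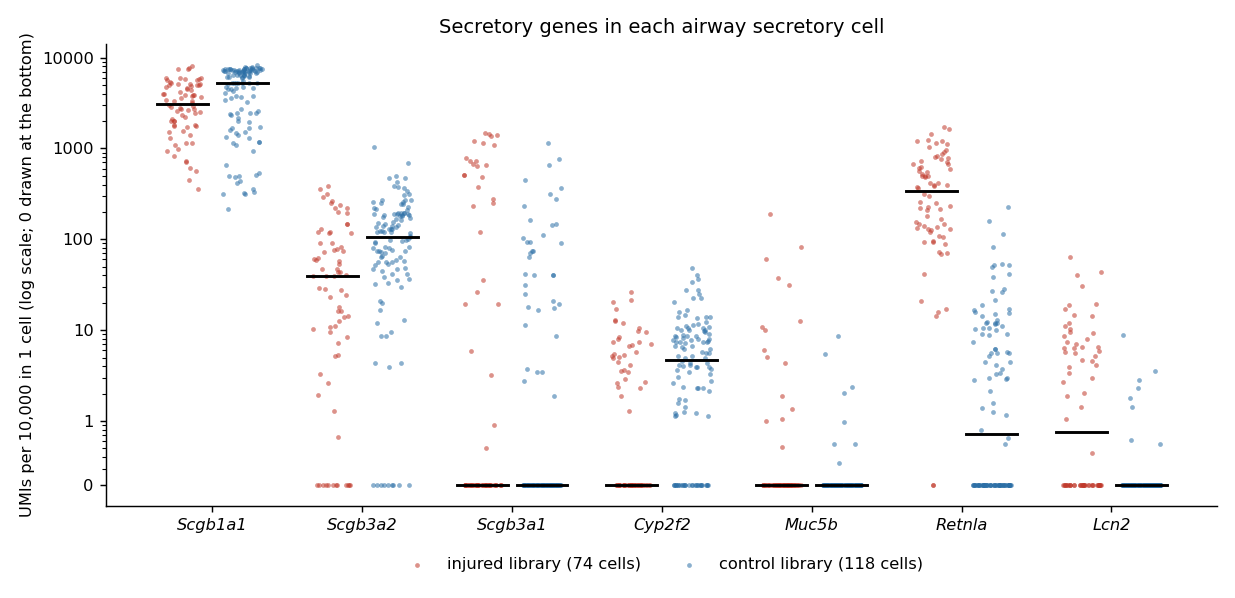
Level of 7 secretory genes in each airway secretory cell, in UMIs per 10000 of the cell (y axis, log scale with 0 drawn at the bottom), for the injured library (74 cells, red, left of each pair) and the control library (118 cells, blue). Black bars are medians. Retnla separates the libraries most, with a median of 338 in injured and 0.720 in control cells, while Scgb1a1 and Scgb3a2 lie lower in injured cells.

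Summed over members and scaled to CPM, 1165 genes had at least 50 UMIs over both libraries. Of these, 178 (15.3%) were at least 2-fold higher in injured members and 51 (4.38%) at least 2-fold lower. Without the 2 deepest injured members the counts were 91 of 996 genes (9.14%) higher and 39 (3.92%) lower, and 76 of the higher and 32 of the lower genes were called both ways. When the 3 secretoglobins were left out of the total, which moves the median log2 ratio of all genes with at least 20 UMIs to -0.09 instead of 0.23, the split was 114 higher and 111 lower. The lists below use genes with at least 20 UMIs, of which 567 of 2483 (22.8%) were higher and 128 (5.16%) lower. That minimum counts both libraries together, so a gene can pass only through the library where it is high. Log2 ratios are injured over control with 10 CPM added to both, which understates the change of low genes. UMIs were counted at the 3′ end of transcripts and do not scale with gene length.

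**Figure D3:**
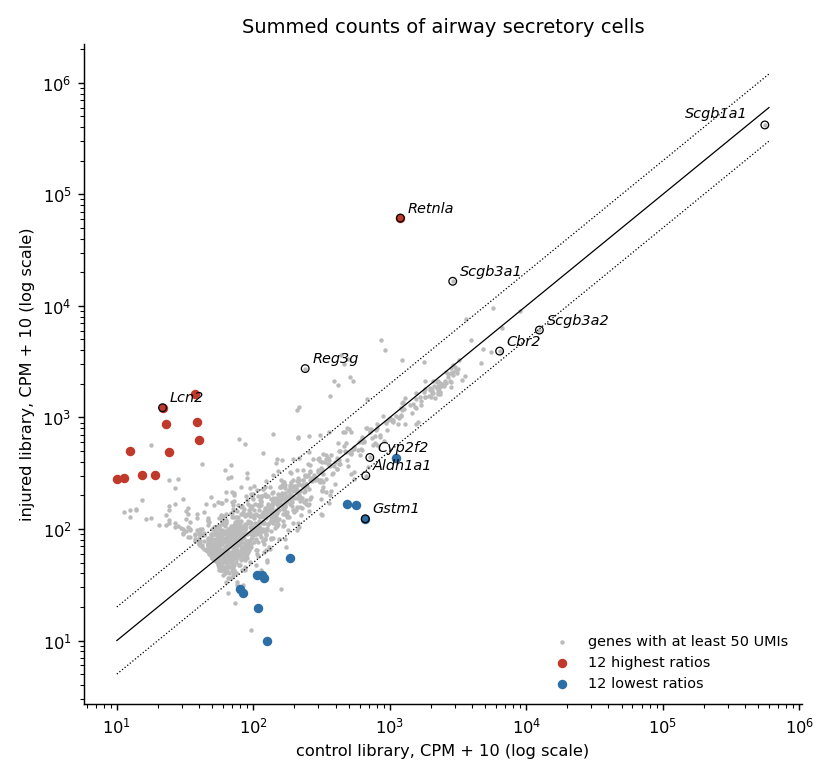
Summed level of each gene with at least 50 UMIs in injured members (y axis) against control members (x axis), both as CPM plus 10 on log scales, with 1 point per gene. The solid line marks equal levels and the dotted lines 2-fold differences; red points are the 12 highest and blue points the 12 lowest named ratios, and circled genes are labelled. Retnla lies farthest from the line among abundant genes, and Gstm1 lies below the lower dotted line.

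Retnla was the most abundant gene among those at least 2-fold higher. The gene lies at chr16:48842551-48844461 (+ strand, GRCm38, GENCODE M21). It reached 61300.2 CPM in injured members and 1185 CPM in control members, a ratio of 51.7 (48.4 to 55.3), and 39.0 without the 2 deepest injured members. Its median per cell was 338 UMIs per 10000 in injured members, with a highest value of 1701, against a median of 0.720 and a highest value of 225 in control members. At least 1 UMI was present in 72 of 74 injured and 61 of 118 control members, and at least 100 UMIs per 10000 were reached by 60 injured and 3 control members. The injured median of 338 lay above the highest control value of 225, and the lower injured members overlapped the control range. After each cell was thinned to 1000 UMIs, which left out 16 injured and 11 control members with fewer, Retnla was found in 58 of 58 injured members (100%, 93.8 to 100%) and 34 of 107 control members (31.8%, 23.1 to 41.5%). Thinned B and T cells, whose median depths were 3404 and 4961 UMIs in the injured library and 4532 and 5880 in the control library before thinning, had Retnla in 7.87% of 254 injured and 0.328% of 609 control cells.

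Members held 74.7% of all Retnla UMIs of the filtered injured cells and 56.9% of those of the control cells. AT2 and ciliated cells also had more Retnla in the injured library, at lower levels than the members. AT2 cells stood at 2417 CPM (2025 to 2863) in 14 injured cells and 77.4 CPM (15.96 to 226) in 24 control cells, and ciliated cells at 1751 CPM in 12 injured cells against 0 of 11 control cells with a UMI. Macrophages with C1q genes, a known source of Retnla in mice, had 330 CPM in 185 injured cells and 215 CPM in 16 control cells. Retnla has close relatives whose reads can be hard to separate. Retnlg, a neutrophil gene, had 234 UMIs in injured and 6 in control members, with 73.9% of the injured UMIs in 1 cell and a ratio of 71.4 that was 10.8 without the 2 deepest cells, and Retnlb had 9 and 0.

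Windows upstream of 4 genes that were higher in injured members are shown, because Retnla and Chil4 are known Stat6 targets in mice and Lcn2 and Reg3g are antimicrobial genes of mucosal epithelium. Each window is the 250 bases before the transcription start given by RefSeq on GRCm38.p6, written 5′ to 3′ on the strand of the gene, with matches to the searched motifs in capitals. They lie at chr16:48842359-48842608 (+ strand, Retnla), chr3:106219480-106219729 (- strand, Chil4), chr2:32387740-32387989 (- strand, Lcn2) and chr6:78468875-78469124 (- strand, Reg3g). RefSeq and GENCODE M21 place some starts differently: all 250 bases of the Lcn2 window, 58 of the Retnla window and 28 of the Chil4 window lie inside the GENCODE gene, and none of the Reg3g window.
Retnla: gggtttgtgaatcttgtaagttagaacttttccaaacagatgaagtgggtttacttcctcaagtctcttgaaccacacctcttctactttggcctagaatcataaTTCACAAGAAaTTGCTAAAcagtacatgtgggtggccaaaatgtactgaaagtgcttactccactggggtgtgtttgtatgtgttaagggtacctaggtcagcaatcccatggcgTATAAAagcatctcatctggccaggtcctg
Chil4: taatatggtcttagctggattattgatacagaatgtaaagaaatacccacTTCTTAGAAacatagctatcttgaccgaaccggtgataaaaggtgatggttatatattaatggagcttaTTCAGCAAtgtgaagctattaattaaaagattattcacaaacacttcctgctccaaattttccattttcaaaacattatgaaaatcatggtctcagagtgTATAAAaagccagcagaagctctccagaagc
Lcn2: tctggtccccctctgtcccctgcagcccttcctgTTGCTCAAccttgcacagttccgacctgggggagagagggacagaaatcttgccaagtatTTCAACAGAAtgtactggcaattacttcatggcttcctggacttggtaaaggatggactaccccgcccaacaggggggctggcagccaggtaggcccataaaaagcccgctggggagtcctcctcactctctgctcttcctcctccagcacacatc
Reg3g: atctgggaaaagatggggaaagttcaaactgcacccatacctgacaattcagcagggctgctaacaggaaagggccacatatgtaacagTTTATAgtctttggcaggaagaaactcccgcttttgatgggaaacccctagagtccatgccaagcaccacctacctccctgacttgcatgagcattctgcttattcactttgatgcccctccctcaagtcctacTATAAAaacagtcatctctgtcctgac
Both strands were searched for TTCNNNNGAA (the spacing that Stat6 prefers), TTCNNNGAA (the spacing of other STAT factors), TTGCNNAA (a C/EBP pattern), GGGANTTNCC (an NF-kB pattern), TGTTTAC (a FOXA pattern) and TATAAA (the TATA box). Counting back from -1 at the base before the start, the Retnla window held TTCNNNNGAA at -145 to -136, TTGCNNAA at -134 to -127 and TATAAA at -30 to -25. The Chil4 window held TTCNNNGAA at -200 to -192, TTGCNNAA on the other strand at -131 to -124 and TATAAA at -31 to -26. The Lcn2 window held TTGCNNAA at -216 to -209 and TTCNNNNGAA at -156 to -147, and the Reg3g window held only the TATA pattern, at -27 to -22 and on the other strand at -161 to -156. None of these matches overlap. Of 32851 windows of the same length, 5.85% held TTCNNNNGAA, 7.02% TTCNNNGAA, 9.56% TTGCNNAA, 0.980% GGGANTTNCC, 3.17% TGTTTAC and 12.4% TATAAA. Among the other genes looked up, Gstm1, which was lower in injured members, also held TTCNNNNGAA (-109 to -100), Scgb3a1 and the second of the Bpifb1 starts held TTCNNNGAA, Ltf held TTGCNNAA on the other strand, and the windows of Agr2, Lrg1 and Cyp2f2 held none of the 6 patterns. A match describes letters only, and of 15 genes looked up 11 had an entry.

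Most other measured genes of the inflamed list were higher, several of them on few cells. Of the 11 measured genes of the inflamed secretory list, 9 were at least 2-fold higher and none lower, against 22.8% higher over all measured genes. The median log2 ratio was 1.98 against 0.23 over all genes. Saa1, Saa2, Csf3, Il6, Tslp, Duox1, Duox2 and Nos2 of the same list had no UMI in members of either library. Among the measured genes, Lcn2, Lrg1 and Socs3 reached the minimum of 20 UMIs only through injured members. Without the 2 deepest injured members 6 of 9 genes were higher, with a median of 1.57, against 330 of 2092 genes (15.8%) over the whole table. Lcn2, an iron-sequestering antimicrobial protein (chr2:32384633-32388252, - strand), had 513 UMIs in 38 of 74 injured members and 9 UMIs in 8 of 118 control members. Its ratio was 104 (54.5 to 229), and 59.8 without the 2 deepest cells, of which the first held 60.8% of the injured UMIs. Thinned to 1000 UMIs, Lcn2 was present in 32.8% (21.01 to 46.3%) of injured and 1.87% (0.227 to 6.59%) of control members, and in none of the thinned lymphocytes. Members held 18.3% of the injured library's Lcn2, and AT2 cells had 1876 CPM in injured and 1238 CPM in control lungs.

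The other genes of this list ranged from near equal levels to large ratios on few UMIs. Cxcl15, a lung epithelial chemokine, is also 1 of the 6 AT2 markers above and made up most of their summed CPM in both libraries. It stood at 2115 CPM in injured and 528 CPM in control members, a ratio of 4.004 (3.56 to 4.51) that was 4.84 without the 2 deepest cells. Wfdc2, an airway protease inhibitor, stood at 7587 CPM in injured and 3601 CPM in control members, a ratio of 2.11 that was 1.68 without them. Socs3, a feedback inhibitor of cytokine signalling, had 21 UMIs in 13 injured members and 1 UMI in control members (ratio 38.4, 6.18 to 1589). Over the other settings tried, the log2 ratio of Socs3 ran from 0 to 4.47. Lrg1, an acute-phase glycoprotein, had 207 UMIs in 14 injured members and 2 UMIs in control members, with 60.4% of the injured UMIs in 1 cell, and its ratio was 189 with all members and 28.2 without the 2 deepest. Complement C3 and the chemokine Cxcl17 had ratios of 7.82 and 3.45, and Icam1, an adhesion molecule, 4.47; without the 2 deepest cells these were 4.36, 2.77 and 2.19. Chil1 at 1.51 and the NF-kB inhibitor Nfkbia at 1.28 stayed under 2-fold, and Nfkbia stood lower without the 2 deepest cells.

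The goblet and mucus genes stood higher in injured members with 1 exception. Of 14 measured genes 13 were at least 2-fold higher and none lower, with a median log2 ratio of 3.20. Without the 2 deepest injured members 10 of 11 were higher, with a median of 3.62. The shares higher among all measured genes were 22.8% and 15.8%. The list held 24 genes, and Muc5b, Muc5ac, Muc4, Agr2, Clca1 and Fcgbp reached the minimum of 20 UMIs only through injured members. The minimum itself therefore favoured higher genes. Muc5b, the main gel-forming airway mucin (chr7:141839070-141873084, + strand), had 366 UMIs in 16 injured members and 10 UMIs in 8 control members. Its ratio was 67.0 (36.0 to 141) and 26.5 without the 2 deepest cells, the second of which held 73.2% of the injured UMIs. Muc5ac, the other airway gel mucin, had 24 UMIs in 5 injured members and none in control members, and against a bound of 3 control counts it was at least 14.6-fold higher, with a lower limit of 11.01 for the exact interval. Reg3g, an antimicrobial lectin, had 1156 UMIs in 17 injured members and 178 in 17 control members, a ratio of 11.9 (10.1 to 14.0) that was 18.3 without the 2 deepest.

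Genes that act on mucin outside or inside the cell went the same way. Clca1, a secreted protease of mucus, had 126 UMIs in 11 injured members and 4 in 2 control members (ratio 57.6, 22.0 to 215, and 88.8 without the 2 deepest cells). Agr2, a disulfide isomerase needed for mucin folding, had 116 UMIs in 9 injured members and 1 in control members, and Fcgbp, a mucus protein, 44 UMIs and 3 UMIs, with a ratio of 26.8 that was 41.3 without the 2 deepest. Bpifb1, a secreted lipid-binding protein, stood at 624 CPM in injured and 29.7 CPM in control members, a ratio of 21.004 (13.7 to 33.7). Ltf, the iron-binding lactoferrin, had a ratio of 32.0, with 77.7% of 385 injured UMIs and 81.8% of 22 control UMIs in 1 cell each and a ratio of 10.1 without the 2 deepest, and 39 UMIs of Muc4 were found in injured members only, 94.9% of them in 1 cell. Creb3l1, Muc1, Pigr and Tff2 had ratios of 6.71, 4.84, 10.6 and 2.04, which were 3.29, 3.63, 3.84 and 2.75 without the 2 deepest cells. Bpifa1 stood at 194 CPM in injured and 354 CPM in control members, a ratio of 0.548 that was 0.843 without the 2 deepest, and 72.6% of its control UMIs came from 1 cell; without the cell with most Bpifa1 in each library its log2 ratio was 0.31 instead of -0.84.

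Chil4, a chitinase-like protein of type 2 inflammation, had 114 UMIs in 13 of 74 injured members and 0 in 118 control members, so against a bound of 3 control counts it was at least 69.5-fold higher; the lower limit of the exact interval of the ratio is 55.6. Its close relative Chil3, whose reads may be hard to separate from it, had 118 UMIs in injured and 43 in control members. Of the interleukin 13 response list all 6 measured genes (Retnla, Chil4, Clca1, Fcgbp, Muc5ac and Tff2) were at least 2-fold higher, against 22.8% of all measured genes. Their median log2 ratio was 3.69, and 5 of them also stand in the lists above. The list held 21 genes, and Chil4, Clca1, Fcgbp and Muc5ac reached the minimum of 20 UMIs only through injured members. The minimum itself therefore favoured higher genes. Chia1, an acidic chitinase, had 126 UMIs in injured and 7 in control members (ratio 32.9, 15.5 to 83.6, and 16.9 without the 2 deepest cells). Cp, the copper-carrying ferroxidase ceruloplasmin, had 203 UMIs in injured and 11 in control members (ratio 33.8, 18.5 to 68.7, and 6.92 without them).

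Scgb3a1 divided the members, and most goblet and mucus RNA of injured members lay on its high side. A limit of 100 Scgb3a1 UMIs per 10000, chosen after the values were seen, put 21 of 74 injured members (28.4%, 18.5 to 40.1%) and 13 of 118 control members (11.0%, 6.00 to 18.1%) on the high side. Scgb3a1 is part of the rule, the subset is a range of 1 gene rather than a type, and between 50 and 200 per 10000 lay 1 injured and 12 control members. In the injured library the high side held 360 of 366 Muc5b, 253 of 264 Bpifb1, 177 of 178 Tff2 and 375 of 385 Ltf UMIs, and all 1156 Reg3g, 126 Clca1, 116 Agr2 and 114 Chil4 UMIs. In the control library it held 146 of 178 Reg3g, 15 of 23 Bpifb1, 85 of 160 Tff2, 21 of 22 Ltf, 5 of 10 Muc5b and 2 of 4 Clca1 UMIs. Median Reg3g on the high side was 132 per 10000 in injured cells and 11.8 in control cells, and median Muc5b was 4.33 and 0.

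Between Scgb3a1-high cells of the 2 libraries the ratios were smaller for some of these genes than over all members. Reg3g had a ratio of 2.47 (2.08 to 2.95), Bpifb1 5.26 (3.13 to 9.53) and Tff2 0.649 (0.498 to 0.851), while Muc5b kept a ratio of 22.4 (9.53 to 69.5). Without the 2 deepest injured cells the same 4 ratios were 5.18, 8.76, 1.19 and 12.03. Bpifa1 was lower in injured cells of the high side, at 0.0947 (0.0730 to 0.122), and 0.199 without the 2 deepest. Most of its control UMIs came from 1 cell. On the low side Tff2 had 1 UMI in injured and 75 in control cells, and Reg3g 0 and 32. Muc5b, Bpifb1 and Ltf had low-side ratios of 3.05, 3.50 and 25.4 on few UMIs. Without the 2 deepest cells Muc5b was at 1.39 (0.133 to 8.51) and Ltf at 10.4 (0.839 to 548). All 11 injured low-side Bpifb1 UMIs came from 1 of those cells, and without it Bpifb1 had 0 UMIs in injured and 8 in control cells. Retnla differed on both sides of the limit, at 79362 CPM in injured and 3367 CPM in control cells on the high side (ratio 23.6) and at 52809.5 CPM in injured and 1060 CPM in control cells on the low side (ratio 49.8); without the 2 deepest cells these ratios were 15.8 and 41.6. Lcn2 also differed on both sides, with ratios of 7.90 (2.60 to 39.1) on the high side and 185 (84.4 to 508) on the low side, which were 14.4 and 72.5 without the 2 deepest cells. The difference between the sides was not tested.

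**Figure D4:**
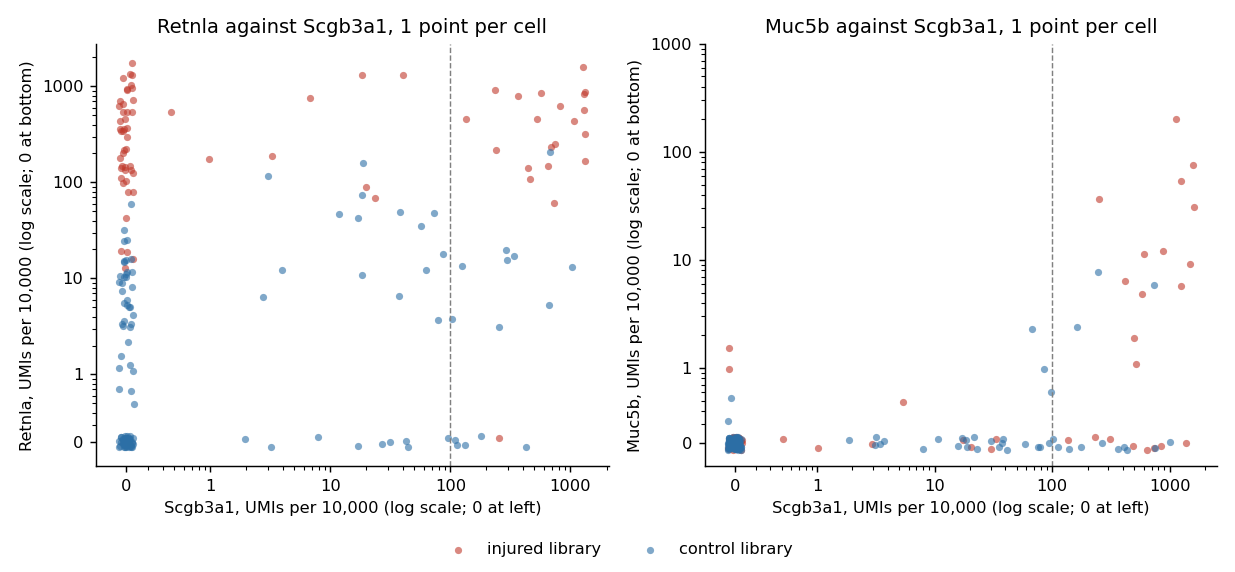
Retnla (left panel) and Muc5b (right panel) against Scgb3a1 in each airway secretory cell, in UMIs per 10000 on log scales with 0 drawn at the left and bottom and points shifted slightly at random; injured cells are red and control cells blue. The dashed line marks 100 Scgb3a1 UMIs per 10000. Retnla is found across the whole range of Scgb3a1 in injured cells, and 360 of 366 injured Muc5b UMIs lie to the right of the line.

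Club cell genes stood apart from each other. Of 19 measured genes 6 were at least 2-fold lower and 4 at least 2-fold higher in injured members, with a median log2 ratio of -0.18. Among all measured genes 128 of 2483 (5.16%) were lower and 567 (22.8%) higher. The count of higher club genes therefore lay near the share of all genes. Without the 2 deepest injured members 5 of 18 club genes were lower, against 121 of 2092 genes (5.78%), and 4 higher, against 330 (15.8%). The lower genes were enzymes. Gstm1, a glutathione S-transferase (chr3:108012255-108017973, - strand), had 48 UMIs in 28 of 74 injured members and 504 UMIs in 95 of 118 control members, at 113 CPM in injured and 651 CPM in control members. Its ratio was 0.174 (0.127 to 0.235; reads it shares with its relative Gstm2 may be split) and 0.235 without the 2 deepest cells. Gsta3, another glutathione S-transferase, had a ratio of 0.275 (0.208 to 0.357), and Pon1, an esterase, 0.258 (0.150 to 0.418). The aldehyde dehydrogenase Aldh1a1 stood at 291 CPM in injured and 657 CPM in control members (ratio 0.442, 0.360 to 0.539), and the cytochrome P450 Cyp4b1 had 5 UMIs in injured and 37 in control members (ratio 0.247). Ephx1, an epoxide hydrolase, also passed, with 4 UMIs in injured and 16 in control members (ratio 0.457). Its log2 ratio ran from -1.12 to 0 over the other settings tried.

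Of these enzymes Gstm1, Aldh1a1 and Gsta3 were also compared on each side of the Scgb3a1 limit, and were lower in injured cells on both. Gstm1 had a ratio of 0.0890 (0.0351 to 0.201) on the high side and 0.214 (0.151 to 0.295) on the low side, Aldh1a1 0.322 and 0.188, and Gsta3 0.301 and 0.227. Without the 2 deepest cells Gstm1 and Gsta3 had ratios of 0.163 and 0.501 on the high side. Thinned to 1000 UMIs, Gstm1 was present in 13.8% (6.15 to 25.4%) of injured and 40.2% (30.8 to 50.1%) of control members, and Aldh1a1 in 22.4% (12.5 to 35.3%) and 42.1% (32.6 to 52.0%). Other enzymes of xenobiotic metabolism were among the 12 lowest named ratios of the whole table. The sulfotransferase Sult1d1 had 4 UMIs in injured and 76 in control members, Aldh3a1 7 and 57, Aldh2 67 and 368, and the electron carrier Cyb5a, which passes electrons to cytochrome P450 enzymes, 178 and 854. The ratios of these 4 genes were 0.0963, 0.225, 0.333 and 0.381, and 0.148, 0.297, 0.391 and 0.498 without the 2 deepest cells. The same 12 also held AW112010, the glutaredoxin Glrx3 and Pcbd2, with ratios of 0.237, 0.297 and 0.271, which were 0.166, 0.381 and 0.417 without them. AW112010 in control members stood at 24.6% of its CPM in the other cell class where it was highest. Its log2 ratio ran from -2.71 to 0 over the other settings tried, and the part of free RNA was not tested.

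The other club genes ran in both directions. Cbr2, a carbonyl reductase, stood lower at 3922 CPM in injured and 6368 CPM in control members, a ratio of 0.616 (0.582 to 0.651) that was 0.814 without the 2 deepest cells. Its ratio was 0.429 (0.372 to 0.495) between Scgb3a1-high cells and 0.662 between Scgb3a1-low cells, and 0.530 and 0.872 without the 2 deepest. Cckar, a cholecystokinin receptor that is found in club cells, had 65 UMIs in injured and 32 in control members (ratio 3.72, 2.40 to 5.87), and Gabrp, a GABA receptor subunit, 79 and 61 (ratio 2.37, 1.67 to 3.37). Ces1d and Por, the other 2 genes at least 2-fold higher, had log2 ratios of 0.94 and 0.85 that were -0.28 and -0.27 without the 2 deepest cells. Hp, the haemoglobin-binding haptoglobin, stood at 3138 CPM in injured and 1775 CPM in control members, with 49.1% of the injured UMIs in 1 cell, and its log2 ratio of 0.82 was -0.22 without the 2 deepest cells.

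Cyp2f2 (chr7:27119909-27133660, + strand) depended on which cells were removed by the lineage genes. In members it stood at 428 CPM in injured and 704 CPM in control members, a ratio of 0.608 (0.511 to 0.720) that was 0.517 without the 2 deepest cells. Thinned to 1000 UMIs it was present in 39.7% (27.0 to 53.4%) of 58 injured and 40.2% (30.8 to 50.1%) of 107 control members. Thinned to 2000 UMIs, which fewer members reach, it was present in 39.0% (24.2 to 55.5%) of 41 injured and 68.8% (58.4 to 78.02%) of 93 control members. Of the cells over the secretoglobin threshold, 10 injured and 13 control cells were removed for Ptprc, Foxj1, Ccdc153 or Marco, and these held 353 injured and 129 control Cyp2f2 UMIs. A single removed injured cell with 55429 UMIs, of which 2 were Marco, 2 Ptprc and 19772 Scgb1a1, held 239 of the 353. With the removed cells kept, Cyp2f2 stood higher in injured cells, at 915 CPM against 664 CPM in control cells, with a ratio of 1.38 (1.23 to 1.55). That interval covers counting error only, and 239 of the 534 injured Cyp2f2 UMIs behind it came from the single cell above. Gstm1 had a ratio of 0.189 and Retnla of 46.5 with the removed cells kept.

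**Figure D5:**
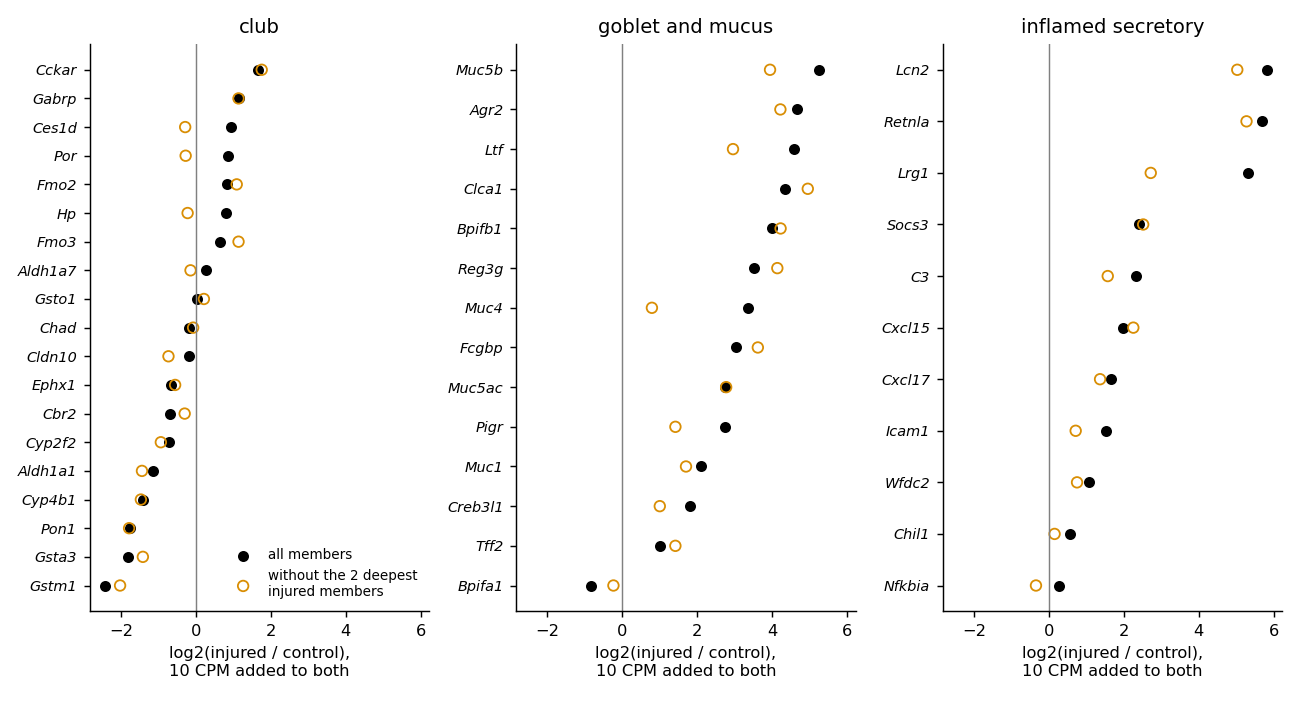
Log2 ratio of injured over control members (x axis, 10 CPM added to both) for each measured gene of the club (left), goblet and mucus (middle) and inflamed secretory (right) lists. Filled points use all members and open points leave out the 2 deepest injured members. Goblet and mucus genes other than Bpifa1 lie right of 0 either way, while club genes lie on both sides and Hp, Ces1d, Por and Aldh1a7 cross 0.

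Genes of the unfolded protein response, which expands the folding capacity of the endoplasmic reticulum, were mostly higher. Of 11 measured genes 8 were at least 2-fold higher and none lower, with a median log2 ratio of 1.22. Leaving out the 2 deepest cells, 5 were higher, with a median of 0.78. Over all measured genes 22.8% were higher, and 15.8% without the 2 deepest cells. Hsp90b1 and Dnajc3, a chaperone and a co-chaperone of the endoplasmic reticulum, had ratios of 9.81 (5.11 to 20.7) and 5.03 (2.53 to 10.7), and were 6.92 and 3.29 without them. Atf4 and Pdia3 were lowest, at 1.41 and 1.44. Of 10 antioxidant genes 2 were higher, near the 22.8% of all measured genes, and none lower. The higher genes were Gclc and Gsr. Gclc had a ratio of 11.4, with 79.5% of its injured UMIs in 1 cell, and 3.16 without the 2 deepest. Gsr, a glutathione reductase, had a ratio of 3.27 (2.17 to 5.01). Prdx6 and Aox3 had ratios of 0.567 and 0.534.

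Several other lists rested on the 2 deepest injured cells. Among all measured genes 22.8% were higher and 5.16% lower with every member, and 15.8% and 5.78% without these cells. All 6 measured immediate early genes were at least 2-fold higher with every member, and 0 of 4 without these cells, where the median log2 ratio was 0.02 instead of 1.22; 98.3% of Egr1 and 92.6% of Fos UMIs of injured members came from 1 cell. Of 9 epithelial repair genes 5 were higher with every member and 2 without the deepest cells, with medians of 0.96 and 0.27. In that list Clu had 680 UMIs in injured and 21 in control members, a ratio of 59.3 that was 5.90 without them, and Krt8 had a ratio of 2.29 that was 1.06. Of 10 airway transcription factor and Notch genes 6 were higher and 1 lower with every member, and 3 were higher and 2 lower without the deepest cells. Elf3 and Cebpd had ratios of 5.18 (1.95 to 16.1) and 3.56 (1.997 to 6.56), and Hes1, a target of Notch signalling, had 12 UMIs in injured and 82 in control members (ratio 0.268, 0.133 to 0.493).

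Surfactant genes were at least 2-fold higher for 5 of 7 and lower for none, with a median log2 ratio of 2.17 and of 1.37 without the 2 deepest cells. For this and the next lists, the shares over all measured genes were 22.8% higher and 5.16% lower. Sftpc, the AT2 cell gene that carries the mutation, had 155 UMIs in 13 injured members and 45 in 12 control members, at 366 CPM in injured and 58.1 CPM in control members, against 32000.9 CPM in 14 injured and 29826 CPM in 24 control AT2 cells; its ratio of 6.30 was 9.71 without the 2 deepest cells. Sftpb stood at 2294 CPM in injured and 502 CPM in control members, a ratio of 4.57 that was 2.56 without them, whereas Sftpd and Sftpa1 had ratios of 1.26 and 1.03. The AT2 markers above moved with these genes, but Sftpc is in both sets and Cxcl15 made up most of the marker sums. The part of these markers was not tested. The interferon list had 2 measured genes, Ifitm3 at 1.78 and Bst2 at 2.06, both lower in injured members without the 2 deepest cells. Of 5 MHC class I genes 2 were higher (Tapbp at 7.78 and H2-D1 at 2.53, and at 4.93 and 1.80 without the 2 deepest) and B2m was lower at 0.401. Without the 2 deepest cells Tapbp no longer reached 20 UMIs. Of the 4 genes then measured 0 were higher and 1 lower, with a median log2 ratio of -0.22 instead of 0.69. Of 3 MHC class II genes only H2-Aa passed 2-fold, with 4 UMIs in injured and 20 in control members. Its ratio was 0.366, and 0.564 without the 2 deepest. Of 5 cell cycle genes Pcna and Ccnb2 were higher, with ratios of 2.69 and 2.74 and 25 and 12 injured UMIs; without the 2 deepest cells Ccnb2 was at 1.06. The basal and hillock list had 1 measured gene, Krt15, whose 89 UMIs all came from 1 control cell.

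Most members with a UMI of Muc5b, Reg3g or Bpifb1 in the injured library also had one of Scgb3a1. Retnla was in all 58 injured members thinned to 1000 UMIs, so its overlap with other genes there carries no information. All 8 Muc5b-positive, 12 Reg3g-positive and 13 Bpifb1-positive injured members also had Scgb3a1, which was found in 21 of 58. Lcn2 and Cyp2f2 were found together in 5 of 58 injured members, with 19 and 23 positive for each, and Muc5b and Cyp2f2 in 3. At 2000 UMIs, 6 of 7 Muc5b-positive injured members had Scgb3a1, and Lcn2 and Cyp2f2 were found together in 9 of 41, with 24 and 16 positive for each. In the control library 10 Reg3g-positive and 7 Bpifb1-positive members all had Scgb3a1, which was found in 30 of 107, and Muc5b and Lcn2 were each found in 2 members, 1 of the Muc5b-positive members having Scgb3a1 and none of the Lcn2-positive ones Cyp2f2. Over members, summed club and goblet UMIs had Spearman coefficients of 0.32 in the injured (58 cells) and 0.22 in the control library (107 cells), and club and inflamed UMIs -0.15 and -0.02; cells of 1 library share its free RNA and its depth, so these are descriptions.

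By the lower of the 2 libraries' Spearman coefficients over thinned members, among 191 genes found in at least 25% of them in each library, Scgb3a1 was most like Lypd2 (0.69 over injured and 0.48 over control members) and Scgb3a2 (0.58 and 0.45). For Retnla the most alike gene was Scgb3a1 itself, at 0.19 and 0.40, and for Cyp2f2 it was Vamp8, at 0.22 and 0.17. For Muc5b it was Retnla, at 0.18 and 0.23. In sparse counts such low values carry little information.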

How the data were processed

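UMI counts per gene and cell were deposited for 2 libraries, 1 per group, with Cell Ranger 4.0.0 named per the file headers; the submitters' processing notes also list STAR 2.7.2c, featureCounts 1.6.3, DESeq2 1.26.0 and 1.28.1 and the builds GRCm38 and mm10, with no role given. The deposited counts covered 32285 genes and 22314603 UMIs in 2702 injured barcodes and 17207816 UMIs in 2674 control barcodes; 38 symbols stand on more than 1 gene ID. Precision is limited by 423245 injured and 774502 control member UMIs. Counts were summed over members and given as CPM, with exact Poisson, binomial or conditional 95% intervals. PCR copies were already collapsed by UMI. A gene was called at a 2-fold ratio with at least 50 UMIs, or 20 for the 15 gene lists, and a count of 0 was bounded at 3 counts over the group. Members were also thinned at random to 1000 UMIs with fixed seeds.

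The members and lists were chosen with earlier results of these data known. The text names list genes with at least 20 UMIs and the 12 highest and 12 lowest log2 ratios among genes with at least 50 UMIs, without mitochondrial, ribosomal, haemoglobin, immunoglobulin, T cell receptor, sex-linked marker and unnamed genes and genes under 20% of their CPM in any other class; Retnlb, Retnlg, Chil3, Lypd2 and Vamp8 were named outside this rule. A simulated-doublet score marked 44 injured and 44 control cells, none of them a member. The scripts ran on scipy 1.17.1, numpy 2.4.6, pandas 2.3.3, scikit-learn 1.9.0 and matplotlib 3.10.9 under Python 3.11.15, and were tested on simulated data. Other scalings, thresholds, count minimums, pseudocounts and sets of cells were tried.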

Additional observations from a re-analysis of the deposited data

How the results depend on the processing

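No paired analysis was possible because each group is 1 library, and no replicate could be left out, so nothing here bears on the spread between mice. The counts of 178 genes higher and 51 lower were 114 and 111 with the 3 secretoglobins out of the total, 1275 and 296 at a minimum of 10 UMIs and 4408 and 2445 at a minimum of 1 UMI, where more genes were compared; 136 were lower with lymphocyte CPM subtracted, and 91 higher without the 2 deepest injured members. The median log2 ratio of all genes was 0.23 as reported, 0.13 with median-of-ratios size factors, 0.13 with each member weighted the same, 0.13 with 50 CPM added and 0 with lymphocyte CPM subtracted. The inflamed median of 1.98 was 1.08 with equal weights and 1.01 at a minimum of 1 UMI, and the goblet median of 3.20 was 1.63 with 50 CPM added. The share difference of -1.88 points was -4.13 points among cells with no Ptprc UMI, a smaller denominator. Por reversed to a log2 ratio of -0.75 with equal weights, -0.27 without the 2 deepest members and -0.10 without its top member, and Ces1d to -0.28 without the 2 deepest; the cause was not tested. Of 1088 values of 64 genes under alternatives, 936 stayed within the counting interval and 148 lay outside it. Another 4 reversed the sign of a 2-fold call (Por and Ces1d above). Some of the 936 could not have been counted as outside. Chil4, Muc5ac, Muc4 and Krt15 had no UMI in 1 library, so their interval had no limits. The log2 ratio of Chil4, for example, ran from 2.68 to 8.08. Leaving out doublet-scored members removed no member, so those values equalled the reported ones. With genes under 2-fold included, 21 values of 9 genes had the other sign (Aldh1a7, Gsto1, Por, Nfkbia, Bpifa1, Hp, Ces1d, Chad and Cyp2f2). Leaving out the 2 deepest members and keeping the cells removed by lineage genes were chosen after seeing the data. Genes under 20 UMIs were not readable at this depth.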
